A study of Mus musculus with 8 samples.

Results

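Complement is a cascade of plasma and tissue proteins that tags particles for uptake and attracts immune cells. In its alternative pathway the central protein C3 is cleaved into C3b, factor B joins C3b to form the enzyme that cleaves more C3, and properdin holds that enzyme together, while factor I and membrane proteins such as CD55 and CD59 stop the cascade at different steps. In brain tissue, complement made by glial cells is best known for marking synapses and debris, which microglia take up through complement receptors. The 8 genes described here encode C3 (C3), factor B (Cfb), properdin (Cfp), factor I (Cfi), the receptors of the fragments C3a and C5a (C3ar1 and C5ar1), and the membrane inhibitors CD55 (Cd55) and CD59 (Cd59a). They were chosen by gene symbol, each was found once among the 31406 genes of the count table, and all 8 passed the filter on low counts.

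The libraries came from primary cultures of wild-type (WT) microglia of the mouse, which are the macrophages of brain tissue, prepared according to the methods of the study from the striatum of C57/BL6 pups that were 2 to 4 days old. According to the methods, all cultures were kept for 15 days and then activated with interferon-γ (IFNgamma) and lipopolysaccharide (LPS) for 48 h. Ligands were added at 24, 32 and 40 h of the activation. The labels give a time of 3 days for every library. Under their titles, 4 libraries had SCH 58261, an antagonist of the adenosine A2A receptor (A2A antagonist group), and 4 had SCH 58261 with 2-Cl-IB-MECA, an agonist of the adenosine A3 receptor used at 200 nM (dual group). In the labels the treatment field names 2-Cl-IB-MECA for the first 4 libraries and not for the second 4. The groups follow the titles, which match the names of the count columns, so every direction given here rests on the titles. Each group is set only against the other, because the activated vehicle cultures were not analysed here. The labels do not say whether the libraries of a group came from separate litters or dishes. The methods of the study count 4 pregnant animals in all and do not assign them to libraries. For ligand-treated cells the methods give fewer replicates than the 4 libraries per group here, while a figure legend of the study gives 4. The p-values therefore measure the spread between these libraries, which may be technical.

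The libraries held 32630602 to 45878639 counts each. Markers of several cell types were read in the cultures beside those of microglia. The summed level of 10 microglia markers, from Csf1r at the highest level to P2ry12 at the lowest, was 659 to 686 CPM (counts per 1000000 counts, with library sizes scaled by TMM factors) under the A2A antagonist and 663 to 695 CPM in the dual libraries. All 10 were above 1 CPM on average in both groups, and P2ry12 had 1.66 CPM in the A2A antagonist group. Single markers lay on both sides of this sum, since 4 had a positive and 6 a negative log2 fold change, and none was called in edgeR (unadjusted p-values under 0.05 for Csf1r and Aif1). Csf1r, the receptor of a macrophage growth factor, had 218 ± 5.47 CPM against 235 ± 8.18 CPM in the dual group (SD, n = 4 each, no overlap), a log2 fold change of 0.11 (SE 0.034, adjusted p-value 0.171 in edgeR). Aif1, which encodes the microglial protein IBA1, had 58.9 ± 2.61 CPM against 50.9 ± 4.67 CPM (SD, n = 4 each, with overlap), a log2 fold change of -0.21 (SE 0.055, adjusted p-value 0.110 in edgeR). The summed level of 10 astrocyte markers was higher, with 6187 to 6461 and 6242 to 6698 CPM in the same order of groups. The 8 fibroblast markers summed to 2569 to 2901 and 2574 to 3259 CPM, and the 8 markers of the oligodendrocyte lineage to 806 to 844 and 757 to 804 CPM, lower in every dual library. The groups were separated only narrowly there (804 against 806 CPM), and 0 of the 8 single markers had groups without overlap. Pdgfra counts in both of these sums. Endothelial markers (5 of 6 read) summed to 49.0 to 60.1 and 50.6 to 62.2 CPM, neuron markers (6) to 28.1 to 30.5 and 26.6 to 30.5 CPM, and hepatocyte markers (5, each under 1 CPM on average) to at most 0.901 and 1.63 CPM. The methods of the study report a high purity of microglia by anti-CD11b labelling, a measure of cells and not of RNA. The sums add different genes without scaling by length, so they do not give shares of cell types. These are cultures of mixed RNA, and the cell type that contributed the reads of any complement gene was not tested. Fewer cells of a type and less RNA per cell cannot be told apart in such libraries.

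C3 had the highest count of all genes in every library, without scaling by gene length. The C3 gene (ENSMUSG00000024164) lies on chromosome 17 from 57203970 to 57228136 (GRCm38, minus strand). It took 1.13% to 1.21% of all counts, and was 1.14 to 1.38 times the count of the second gene, which was Fth1 (ferritin heavy chain) in each library. The level of C3 was 11379, 11633, 11344 and 11840.5 CPM in the A2A antagonist libraries and 11647, 12148, 11870.5 and 11697 CPM in the dual libraries. The groups overlapped, and the highest A2A antagonist library was above the lowest pair of dual libraries. The group means were 11549 ± 233 CPM and 11840.5 ± 226 CPM (SD, n = 4 each). The log2 fold change, dual over A2A antagonist here and for every gene, was 0.036 (SE 0.028, adjusted p-value 0.640 in edgeR). The 95% interval of the fold change ran from 0.984 to 1.07. Between libraries of a group C3 varied by 2.02% and 1.91% (coefficient of variation), against 0.143% from counting alone, so depth did not limit its precision.

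When levels were scaled by gene length, the 8 genes spread over a wide range (plot of length-scaled levels). C3 had 2274 ± 51.3 CPM per kb (SD, n = 8), and Cfp, the gene of properdin, came next with 202 ± 5.66 CPM per kb. C3 was thus 10.7 to 12.1 times Cfp within a library. The receptor genes followed, with 32.1 ± 1.32 CPM per kb for C3ar1 and 22.1 ± 0.762 CPM per kb for C5ar1, and C3ar1 was above C5ar1 by 1.39 to 1.55 times in every library. Below them were Cd59a (15.0 ± 0.705 CPM per kb) and Cfi (13.1 ± 0.838 CPM per kb), whose ranges overlapped (14.3 to 16.3 and 12.2 to 14.4 CPM per kb), although Cd59a was higher than Cfi in each library by 1.04 to 1.25 times. Cfb (3.03 ± 0.274 CPM per kb) and Cd55 (0.850 ± 0.110 CPM per kb) were lowest. No other neighbours in this order overlapped over the 8 libraries, and the place of Cfb is uncertain for the reason given with its counts.

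**Figure D1:**
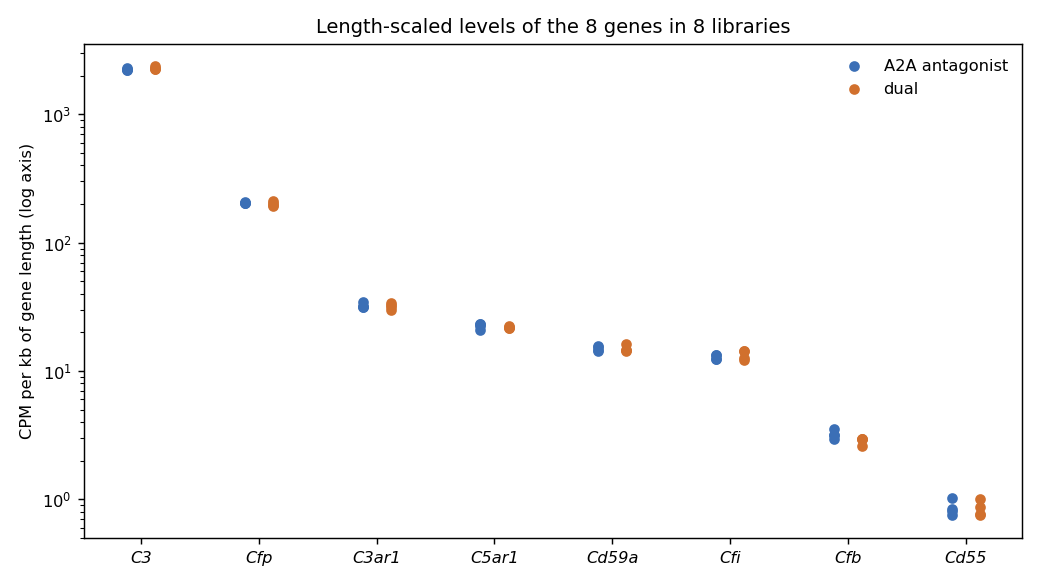
Length-scaled level (CPM per kb of gene length, logarithmic axis) of the 8 genes, with 1 point per library and the 4 A2A antagonist and 4 dual libraries side by side. Levels fall from 2274 CPM per kb for C3 to 0.850 CPM per kb for Cd55, and within each gene the 2 groups lie at the same height on this axis.

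The stretches of 250 bases before the RefSeq start of transcription were read from the RefSeq promoter table (GRCm38.p6), which held 6 of the 8 genes. The first entry of each gene was used. For C5ar1 (minus strand) the stretch ran from 16259339 to 16259588. Most of it lies inside the gene span used for the counts, which ends at 16259540. Cfb and Cfi have no entry. The stretches of the other 6 genes were searched on both strands for letters of sites used by factors of inflammatory signalling. These were TTCNNNGAA (interferon-γ activated site), GAAA and GAAA 2 bases apart (interferon-stimulated response element), and GGG and TTCC 3 bases apart (NF-kB). The others were TGACGTCA (cAMP response element), TGANTCA (AP-1) and TTGCNNAA (C/EBP). Matches were found in 3 genes, which are printed because they hold them, 5′ to 3′ on the strand of the gene and with the matched letters in capitals. In C3 the capitals mark a C/EBP match (45 to 38 bases upstream), in C3ar1 an AP-1 match (22 to 16) followed by an NF-kB match on the other strand (14 to 5), which do not overlap, and in Cd59a a match to the interferon-stimulated response element (187 to 178).
C3 (chr17:57228137-57228386, minus strand): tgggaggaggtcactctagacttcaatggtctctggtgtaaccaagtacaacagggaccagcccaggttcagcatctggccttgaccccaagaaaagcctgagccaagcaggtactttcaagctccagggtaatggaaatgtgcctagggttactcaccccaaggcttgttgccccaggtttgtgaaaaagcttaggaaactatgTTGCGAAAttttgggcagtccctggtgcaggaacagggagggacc
C3ar1 (chr6:122856158-122856407, minus strand): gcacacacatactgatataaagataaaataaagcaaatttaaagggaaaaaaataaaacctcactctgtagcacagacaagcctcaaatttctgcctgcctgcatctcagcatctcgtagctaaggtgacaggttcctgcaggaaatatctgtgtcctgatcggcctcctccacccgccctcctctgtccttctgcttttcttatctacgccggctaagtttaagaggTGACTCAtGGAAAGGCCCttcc
Cd59a (chr2:104095551-104095800, plus strand): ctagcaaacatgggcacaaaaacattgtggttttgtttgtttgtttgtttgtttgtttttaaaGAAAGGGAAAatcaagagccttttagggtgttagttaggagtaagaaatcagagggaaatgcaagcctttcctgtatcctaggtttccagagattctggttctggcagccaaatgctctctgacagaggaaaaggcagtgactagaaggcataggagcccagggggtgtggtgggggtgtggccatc
Among all 32851 promoters of this length in the table, 9.56% held the C/EBP letters, 6.75% the AP-1 letters, 4.65% the NF-kB letters and 2.98% those of the interferon-stimulated response element. The interferon-γ activated site (7.02% of promoters) and the cAMP response element (1.55%) were in none of the 6. A match of letters describes the sequence only and says nothing of binding in these cells.

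The question put to the counts was whether adding the A3 receptor agonist moved the complement genes beyond the A2A receptor antagonist. None of the 8 did so past the test. With edgeR the number of the 8 with an adjusted p-value under 0.05 was 0, in either direction, where 0.208% of the 18756 genes tested had one, and 0 had an unadjusted p-value under 0.05, where 12.8% of all genes tested had one. DESeq2 called 0 of the 8 as well (4.7% of the genes it adjusted were called) and gave 0 at an unadjusted p-value under 0.05, with no adjusted p-value for Cfb and Cd55. Of the 8 genes, 3 had a positive and 5 a negative log2 fold change, with a median of -0.015, beside 9664 positive and 9092 negative and a median of 0.0038 over all genes tested. In 0 of the 8 were the groups free of overlap, beside 7.42% of all genes tested.

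**Figure D2:**
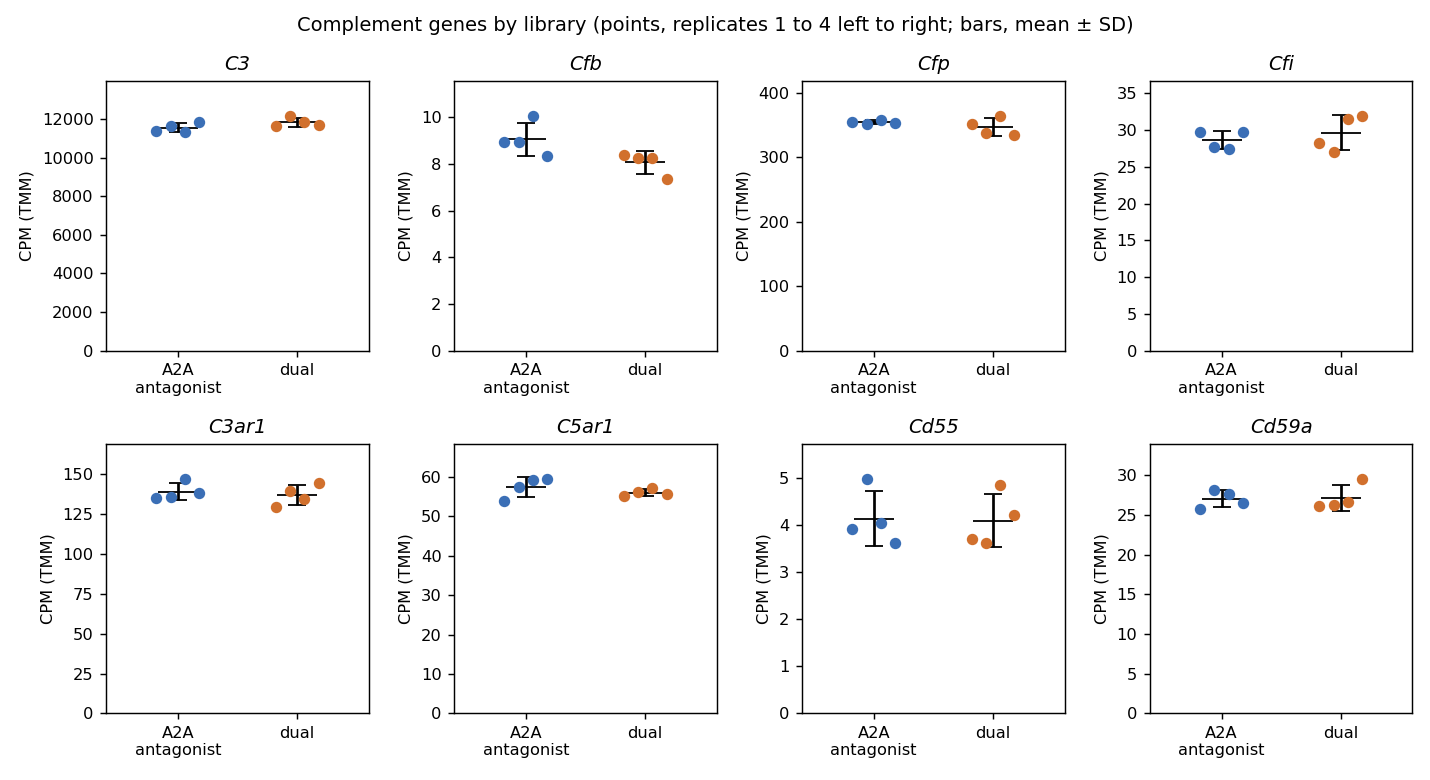
Level of each gene in CPM (TMM-scaled, linear axis from 0) in the 4 A2A antagonist libraries (blue points) and the 4 dual libraries (orange points), with the mean and SD as black bars. The groups overlap in all 8 panels, and for Cfb only by 1 library on each side (8.36 CPM in the A2A antagonist group below 8.40 CPM in the dual group).

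Cfb, the gene of factor B, showed the difference with the smallest p-value among the 8. It lies on chromosome 17 from 34856374 to 34862518 (minus strand, ENSMUSG00000090231). Its level was 8.94, 8.93, 10.05 and 8.36 CPM in the A2A antagonist libraries and 8.40, 8.25, 8.28 and 7.35 CPM in the dual libraries, from 274 to 420 counts per library. A single A2A antagonist library reached into the range of the dual group. The group means were 9.07 ± 0.706 CPM and 8.07 ± 0.482 CPM (SD, n = 4 each). The log2 fold change of -0.17 (SE 0.081) had an unadjusted p-value of 0.0501 and an adjusted p-value of 0.391 in edgeR. The 95% interval of the fold change was 0.790 to 1.00, which leaves a fall to 0.790 of the level within it and reaches just to no change.

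The counts of Cfb need care because of its place in the annotation. In GENCODE M21, 2246 of its 2825 exonic bases (79.5%) also belong to Gm20547, a gene on the same strand that also shares exons with C2 (map of the exons). Gm20547 has no row in the count table used here. Reads that fall on exons of more than 1 gene may be left out by a read counter, and how they were treated was not given in the sources used here. Over the 579 bases that Cfb does not share, the same counts would give 14.8 ± 1.34 CPM per kb (SD, n = 8), in the range of Cd59a and Cfi instead of below them. The level of Cfb is therefore uncertain, while its comparison between groups uses the same bases in all 8 libraries. The neighbour C2, a protease of the classical pathway, shares 1656 of 3872 exonic bases with Gm20547.

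**Figure D3:**
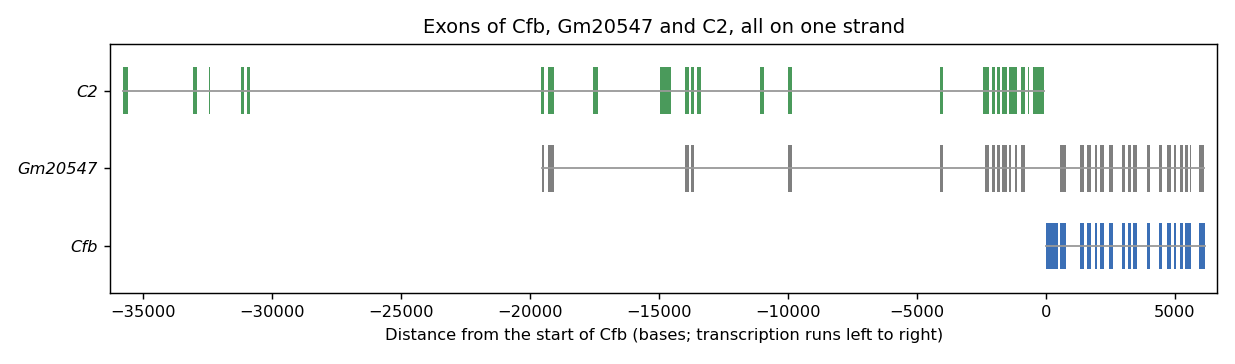
Exons (boxes) of Cfb, Gm20547 and C2 in GENCODE M21, all on the same strand, by distance in bases from the start of Cfb. The exons of Gm20547 coincide with most exons of Cfb and with part of those of C2, leaving 579 exonic bases of Cfb unshared.

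Cfp, the gene of properdin, lies on chromosome X from 20925454 to 20931555 (ENSMUSG00000001128). Properdin is the known positive regulator of the pathway and is made by myeloid cells. Cfp had 355, 353, 359 and 354 CPM in the A2A antagonist libraries and 353, 339, 364 and 335 CPM in the dual libraries. The A2A antagonist libraries lay closer together than the dual ones, with a coefficient of variation of 0.733% against 3.86%, where counting alone gives 0.828%. The difference in spread was not tested. On the log2 scale the fold change was -0.031 (SE 0.033, adjusted p-value 0.749 in edgeR), and the 95% interval of the fold change was 0.933 to 1.03.

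Cfi encodes factor I, the protease that cuts C3b and so ends its use by the pathway. It lies on chromosome 3 from 129835884 to 129875332 (plus strand, ENSMUSG00000058952). Its level was 29.7, 27.7, 27.4 and 29.8 CPM in the A2A antagonist libraries and 28.2, 27.02, 31.5 and 31.9 CPM in the dual libraries. The dual libraries fell into a lower and a higher pair. The higher pair lay above all A2A antagonist values, while of the lower pair 27.02 CPM lay below them and 28.2 CPM among them. Its log2 fold change was 0.053 (SE 0.057, adjusted p-value 0.754 in edgeR), with a 95% interval of the fold change from 0.955 to 1.13.

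C3ar1 (chromosome 6, 122847138 to 122856161, ENSMUSG00000040552) encodes the receptor of C3a, the small fragment released from C3. It had 135, 136, 147 and 138 CPM in the A2A antagonist libraries and 129, 139, 135 and 145 CPM in the dual libraries. The groups covered nearly the same range. Its log2 fold change was -0.021 (SE 0.040, adjusted p-value 0.877 in edgeR), with a 95% interval of the fold change from 0.930 to 1.04, and the sign turned when A2A antagonist replicate 3 or dual replicate 1 was left out (0.0058 and 0.0040).

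C5ar1 (chromosome 7, 16246743 to 16259540, ENSMUSG00000049130) encodes the receptor of C5a, the fragment of C5 that attracts leukocytes. Its level was 53.8, 57.5, 59.2 and 59.5 CPM in the A2A antagonist libraries and 55.1, 56.2, 57.1 and 55.7 CPM in the dual libraries. All dual values lay inside the range of the A2A antagonist group. For C5ar1 the log2 fold change was -0.038 (SE 0.041, adjusted p-value 0.755 in edgeR), with a 95% interval of the fold change from 0.918 to 1.03.

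The membrane inhibitors had the log2 fold changes nearest to 0 among the 8. Cd55, whose product takes apart the enzyme that cleaves C3, lies on chromosome 1 from 130439027 to 130462744 (ENSMUSG00000026399). It had 3.91, 4.99, 4.04 and 3.63 CPM in the A2A antagonist libraries and 3.71, 3.63, 4.86 and 4.22 CPM in the dual libraries, from 121 to 227 counts. The highest value of each group was close to that of the other, and so was the lowest. Its log2 fold change was -0.0089 (SE 0.13, adjusted p-value 0.986 in edgeR), and its 95% interval, from 0.827 to 1.20 in fold, was the widest of the 8 in log2. The sign turned when A2A antagonist replicate 2 (0.095) or dual replicate 1 or 2 (0.034 and 0.046) was left out. Counting alone gives a coefficient of variation of 7.61% at this depth, against 14.2% and 13.8% between libraries. Of the 31-base words in its transcripts 12.96% occur in other genes, foremost its paralog Cd55b, which had no row in the count table under this symbol. A further 102 exonic bases overlap Gm16083 on the opposite strand, so the count of Cd55 is uncertain to that extent.

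Cd59a encodes CD59, which blocks assembly of the membrane attack pore, and lies on chromosome 2 from 104095801 to 104115354 (ENSMUSG00000032679). Its level was 25.8, 28.2, 27.6 and 26.5 CPM in the A2A antagonist libraries and 26.1, 26.2, 26.6 and 29.6 CPM in the dual libraries. A single dual library was above all others, and the other dual libraries were inside the range of the A2A antagonist group. The log2 fold change was 0.0063 (SE 0.052, adjusted p-value 0.979 in edgeR), with a 95% interval of the fold change from 0.931 to 1.08, and it was negative without A2A antagonist replicate 1 or 4 (-0.016 and -0.0040) or dual replicate 4 (-0.039). Other genes, mostly Cd59b, hold 9.39% of the 31-base words in its transcripts. That paralog had 18 to 43 counts per library and a log2 fold change of 0.12 (SE 0.28, adjusted p-value 0.903 in edgeR).

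**Figure D4:**
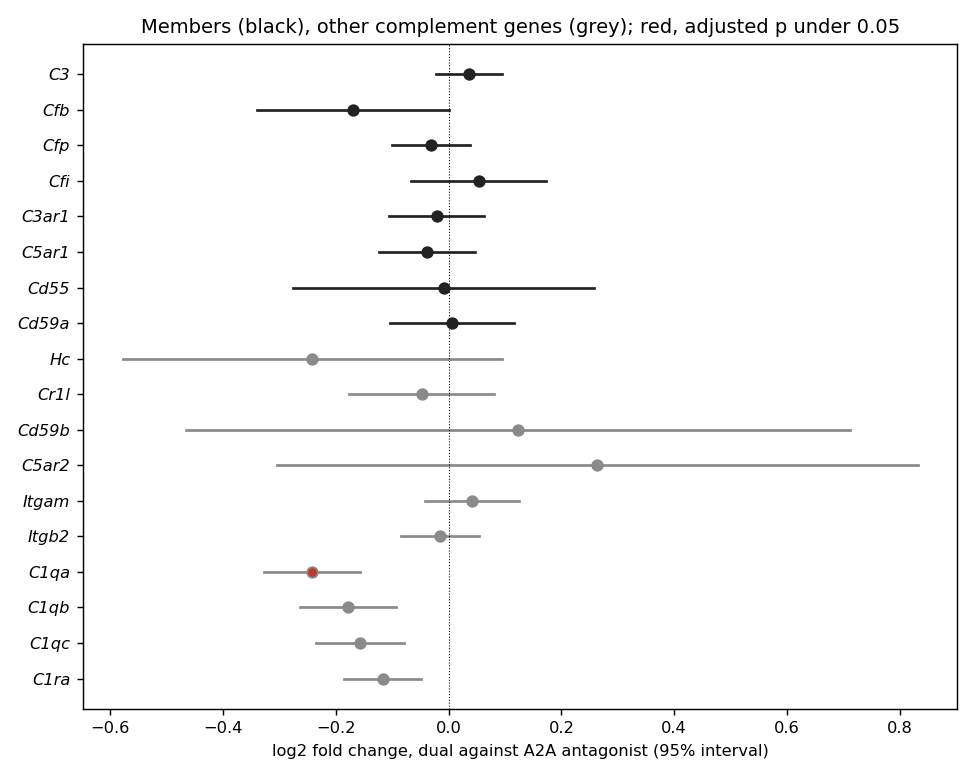
Log2 fold change, dual over A2A antagonist, with its 95% interval from edgeR, for the 8 genes (black) and their partners, paralogs and other named complement genes (grey), with genes at an adjusted p-value under 0.05 in red. The intervals of the 8 include 0, and those of C1qa, C1qb, C1qc and C1ra lie below it.

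Ratios between the genes were compared within libraries, where no scaling of depth enters. The counts of Cfb relative to C3 had a mean log2 ratio of -10.3 ± 0.135 (SD, n = 4) in the A2A antagonist group and -10.5 ± 0.0843 (SD, n = 4) in the dual group. The difference of -0.20 gave p = 0.0571 in a two-sided exact permutation test (0.343 adjusted over the 6 ratios tested). With 4 libraries against 4 the smallest p-value of this test is 0.0286. The ratio of Cfp to C3 differed by -0.068 (p = 0.143 in the exact permutation test), that of Cfi to C3 by 0.012 (p = 0.857, exact), and that of C3ar1 to C3 by -0.058 (p = 0.314, exact). The receptors had a log2 ratio of C5ar1 to C3ar1 of -1.27 ± 0.0547 (SD, n = 4) and -1.29 ± 0.0691 (SD, n = 4), and the inhibitors a ratio of Cd59a to Cd55 of 2.71 ± 0.157 (SD, n = 4) and 2.73 ± 0.188 (SD, n = 4). The adjusted p-values of the other 5 ratios were 0.429 to 0.857.

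**Figure D5:**
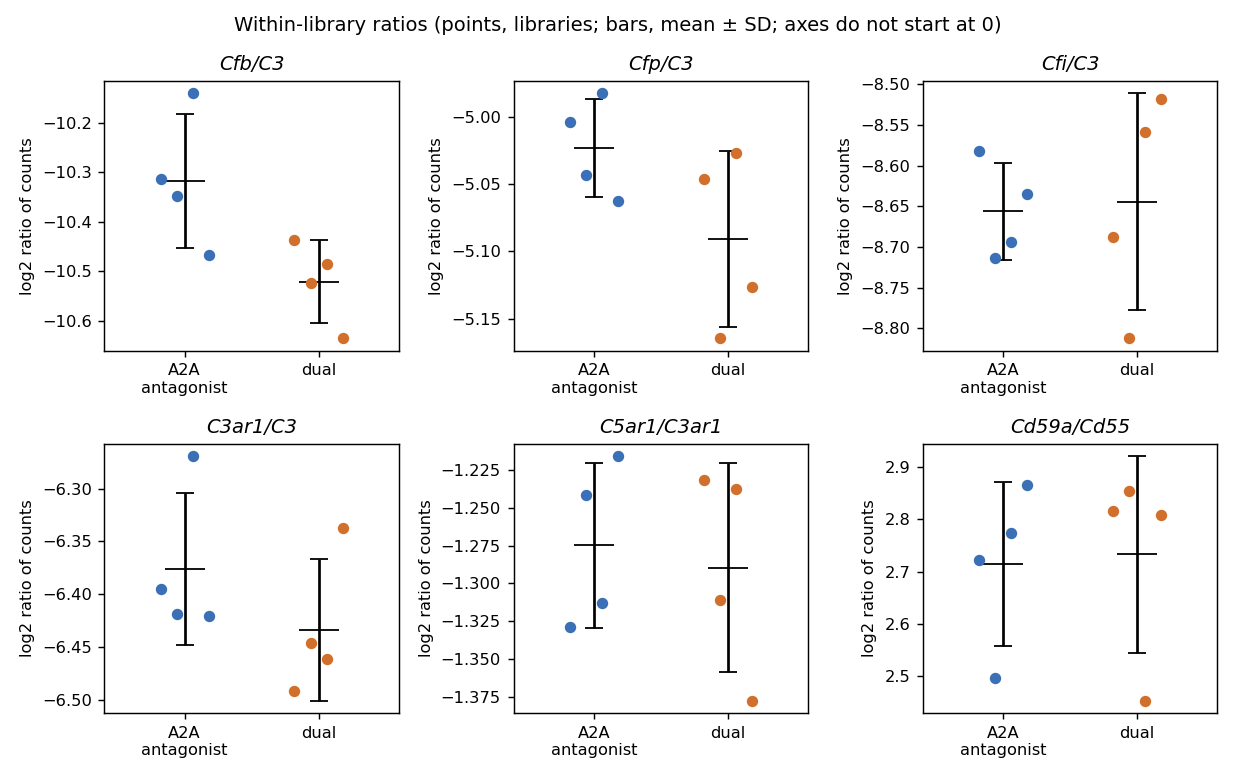
Log2 ratio of the counts of 2 genes in each library (points), with the mean and SD of the 4 A2A antagonist and 4 dual libraries (bars) and axes that do not start at 0. The Cfb to C3 ratio lies lowest in the dual group, at -10.5 against -10.3, and the groups overlap in all 6 panels.

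The likeness of the patterns over the 8 libraries was measured as the root mean square difference between centred log2 CPM values. The genes nearest to C3 were Cds2 (0.0089) and Acox3 (0.014). C5ar1 lay nearest to Csf3r (0.014), the receptor of a granulocyte growth factor. Cfb lay nearest to Gm9816 (0.037) and Asns (0.040), which encodes asparagine synthetase. The nearest genes were Cfl1 and Chmp4b (0.019 each) for Cfp, Polb (0.030) and Rcor1 (0.032) for Cfi, and Fgfr1op2 (0.017) and Map2k4 (0.018) for C3ar1. For Cd55 they were Ust and Mag (0.054 and 0.057), and for Cd59a Fam120b and Phospho2 (0.022 each). Among the 8 themselves the closest pair was Cfp and C5ar1 at 0.049. A gene that did not vary at all would lie at 0.038 from Cfp and 0.046 from C5ar1, so this pair was no nearer than that. For C3ar1 and Cd59a, at 0.052 from each other, the distance to a flat gene was slightly larger (0.055 and 0.062). With this many genes some lie near any pattern over 8 libraries, so the values are a description only.

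The rest of the complement system was read from a list of 49 other genes, of which 43 had a row in the count table and 33 passed the filter on low counts. Of the 33, 18 had a positive and 15 a negative log2 fold change, and the median was 0.035. In edgeR 0 were called higher (0.048% of all genes tested were) and 1, C1qa, was called lower (0.16% of all genes tested were). Unadjusted p-values were under 0.05 for 3 higher genes (5.98% of all genes tested) and 4 lower genes (6.81% of all genes tested).

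The partners of the alternative pathway were unevenly present. Cfd, which encodes factor D, the protease that cuts factor B, had 1 count in each of 2 dual libraries and 0 in the other 6, where 3 counts, the upper limit that a count of 0 allows, correspond to 0.0654 to 0.0778 CPM for counting error only. The genes of the membrane attack complex were low as well: C6, C7 and C9 had at most 4, 7 and 5 counts in a library and failed the filter. C8a and C8b had no row in the count table under these symbols. C8g, with 101 to 175 counts, passed it (log2 fold change 0.083, SE 0.13, adjusted p-value 0.854 in edgeR). Hc, the gene of C5, had 84 to 211 counts and a log2 fold change of -0.24 (SE 0.16, adjusted p-value 0.565 in edgeR).

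Cr1l, the rodent membrane inhibitor Crry, had 48.0 ± 4.37 against 46.4 ± 3.38 CPM (SD, n = 4 each) and a log2 fold change of -0.048 (SE 0.061, adjusted p-value 0.806 in edgeR).

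Among the other receptors, C5ar2, the second receptor of C5a, was low, with 15 to 30 counts per library (log2 fold change 0.26, SE 0.27, adjusted p-value 0.740 in edgeR). Itgam and Itgb2, which together encode complement receptor 3, had 125 ± 3.93 and 162 ± 3.21 CPM (SD, n = 4) in the A2A antagonist group. In the dual group they had 129 ± 6.59 and 160 ± 4.05 CPM (SD, n = 4), and their adjusted p-values were 0.711 and 0.903 in edgeR. Itgam shares 3450 of 5024 exonic bases with Gm49368 on the same strand, so its count is uncertain.

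The classical pathway starts from C1q and C1r and also leads to C3. Of 14 listed genes of the classical and lectin pathways that passed the filter, 6 had a positive and 8 a negative log2 fold change. In 4 of them the groups did not overlap, beside 7.42% of all genes tested. Unadjusted p-values in edgeR were under 0.05 for 1 higher gene (5.98% of all genes tested) and 4 lower genes (6.81%). C1qa, a subunit of C1q, had 434, 487, 482 and 502 CPM in the A2A antagonist libraries and 386, 406, 408 and 412 CPM in the dual libraries. The groups did not overlap. Its log2 fold change was -0.24 (SE 0.040, adjusted p-value 0.0240 in edgeR), and DESeq2 called it as well (adjusted p-value 1.08e-05). The call was lost on leaving out A2A antagonist replicate 2, 3 or 4 (adjusted p-values of 0.0648, 0.0791 and 0.0932) or dual replicate 3 (0.0650), where the log2 fold change was -0.25 to -0.22. It held without any of the other 4 libraries (adjusted p-values of 0.00121 to 0.0452), with the replicate block (0.0189) and without the low-count filter (9.03e-06). C1qb, C1qc and C1ra also had groups without overlap, with log2 fold changes of -0.18, -0.16 and -0.12, and adjusted p-values of 0.0651, 0.0731 and 0.130 in edgeR. Whether these differences were larger than those of C3 and the alternative pathway genes was not tested. Beside them, the summed level of the microglia markers overlapped between the groups, while Aif1 (log2 fold change -0.21) and Tyrobp (-0.094, SE 0.057, adjusted p-value 0.521 in edgeR) were below the A2A antagonist mean in all 4 dual libraries and Csf1r (0.11) was above it in all 4. The part of the marker genes in the C1q values was not tested.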

How the data were processed

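RNA sequencing was analysed for 8 libraries. According to the methods of the study and the submitters' processing notes, the authors mapped read pairs to the mouse genome (mm10) with HISAT2 and counted reads per gene with featureCounts 1.5.0-p3. The strand setting and the handling of reads on several genes or sites were not given in the sources used here. The deposited values used are raw counts per gene, not normalized or pooled, together with a gene length in bases. The deposited tables also hold normalized values and FPKM, and fold changes with p-values from the authors' own comparisons, and none of these were used. In the table against vehicle, 9 columns of per-sample values belong to no sample of this series and were not used. The A2A antagonist counts were the same in both tables (0 differing values over 30302 genes), and all 8 members had the same identifier in both. Of the 31406 genes, 97.4% had the same chromosome, start and end in GENCODE M21 (GRCm38), so coordinates are given in GRCm38.

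For the counts, edgeR 4.0.16 was run in R 4.3.3 with filterByExpr (minimum count 10), TMM scaling and a quasi-likelihood F test of the group, without covariates, with Benjamini-Hochberg adjustment over the 18756 genes tested and two-sided p-values. Standard errors come from the F statistics and 95% intervals from the t quantile. CPM is scaled with TMM factors, and CPM per kb uses the gene length in the table. Ratios were compared with two-sided exact permutation tests over 70 arrangements. Alternatives were DESeq2 1.42.0, other scalings, no filter, a replicate block and leaving out each library. The chi-square per degree of freedom between libraries of a group was 3.83 to 9.53, above the level of sampling noise for every pair. Intervals and limits for counts of 0 cover counting error only.

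The members and all gene lists were chosen with earlier results of these data known. The genes named are the 8 members, their partners and paralogs, and any listed complement gene with an adjusted p-value under 0.05, or an unadjusted one under 0.05 without overlap of the groups, besides the 2 genes nearest in pattern to each member. C8g, C6, C7, C9 and C2 were named after their values were seen. Some genes that these rules name are not reported here.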

Additional observations from a re-analysis of the deposited data

Results flagged for a closer look

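Of the 16 sets of 4 values formed by the 8 genes in the 2 groups, 2 held a library far from the other 3 (a gap over 0.829 of the range, which chance gives in about 1 of 20 sets). Both were dual replicate 4. Cfb was lowest there, at 7.35 CPM where the other dual libraries had 8.25 to 8.40 CPM (gap 0.860 of the range), and without that library the log2 fold change was -0.13 (adjusted p-value 0.582 in edgeR). Cd59a was highest there, at 29.6 CPM where the other dual libraries had 26.1 to 26.6 CPM (gap 0.859 of the range), and without that library it was -0.039 on the log2 scale (adjusted p-value 0.810 in edgeR).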

How the results depend on the processing

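In each of the 13 alternatives 0 of the 8 genes was called. DESeq2 gave no adjusted p-value for Cfb and Cd55, so it could not call these genes. The number of genes called was 39 of the 18756 tested. It became 417 of the 8877 that DESeq2 adjusted, 366 of 31406 without the low-count filter and 17 with the replicate block. When 1 library was left out it was 0 to 172 (172 without A2A antagonist replicate 1, 5, 6 and 0 without its replicates 2, 3 and 4, and 0 without dual replicate 3). The replicate block changed no call among the 8 genes. The correlation of same-numbered libraries over all genes tested was -0.053 to 0.041. This gave no sign that the numbers pair the libraries, but it cannot exclude a shared litter or dish. The log2 fold changes kept their sign for C3 (0.023 to 0.048), Cfb (-0.21 to -0.12), Cfp (-0.057 to -0.014), Cfi (0.016 to 0.095) and C5ar1 (-0.069 to -0.021) when a library was left out. They turned for C3ar1 (-0.049 to 0.0058), Cd55 (-0.11 to 0.095, and 0.0022 with total counts only) and Cd59a (-0.039 to 0.027), none of which was called. Among the ratios, Cfi to C3 (-0.030 to 0.068), C5ar1 to C3ar1 (-0.034 to 0.015) and Cd59a to Cd55 (-0.054 to 0.11) turned, and Cfb to C3 (-0.25 to -0.14), Cfp to C3 (-0.089 to -0.043) and C3ar1 to C3 (-0.090 to -0.022) did not. The Cfb level of 3.03 CPM per kb became 14.8 without the bases shared with Gm20547, an alternative chosen after seeing the data. Counting error was largest for Cd55 (7.61%, beside 14.2% and 13.8% between libraries) and Cfb (5.30%, beside 7.78% and 5.98%) among the 8, so depth set part of the spread.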
